A study of Danio rerio with 4 samples.

Results

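Endoplasmic reticulum folding genes were examined in the brain of foggy mutant zebrafish embryos, set against the brain of wild-type embryos. The members were chosen by gene symbol and with the mutant to wild-type difference in these same arrays known, so that difference is given below as a description and is not tested. The list held 8 genes, namely the chaperones hspa5 and hsp90b1, the calreticulins calr and calr3b, the disulfide isomerases pdia4 and pdia6, and the stress transcription factors xbp1 and ddit3. The array had probe sets named for 7 of them, 8 probe sets in all among 15617, and calr was read by 2. No probe set was named for ddit3, which is not analysed here.

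Total RNA of embryonic brain was read on 3 arrays of foggy mutants and on 1 array of wild type. The wild-type label gives 36 h, and the mutant labels give 36 with no unit, which was read as hours. The foggy locus is known to encode Spt5, a protein that travels with RNA polymerase II and acts in both pausing and elongation. The labels name no allele and no strain, and do not say how many embryos went into a sample or whether the mutant samples came from separate clutches. P-values rest on the spread among the 3 foggy arrays, since the single wild-type array adds none. With such labels, that spread may be technical.

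The endoplasmic reticulum is where secreted and membrane proteins enter the secretory pathway, fold, gain their disulfide bonds and receive their first sugars. When unfolded proteins build up there, the sensors Ire1, Perk and Atf6 set off the unfolded protein response, in which Ire1 splices xbp1 messenger RNA and the resulting factor, together with Atf6, induces chaperone genes. Perk acts through Atf4, which induces genes of amino acid supply and ddit3. The probe sets read the amount of a transcript and not its spliced form.

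All measured members were lower in the samples labelled foggy brain, which also had lower summed muscle and cartilage marker signal, given below. Their mutant mean lay between 51.9% and 81.7% of the wild-type signal, with calr3b the lowest by this measure and xbp1 the nearest to wild type. At each of the 8 probe sets all 3 foggy arrays lay below the wild-type array, which was so for 28.4% of all 10851 tested probe sets. All 8 also passed limma's adjusted p of 0.05 as lower, against 3.14% of all probe sets, and 0 passed as higher, against 2.36%. As the members were chosen on this contrast, nothing is read from these counts. The same holds for the lack of overlap and the ranks among all probe sets given gene by gene below. Taken over genes, the median difference was -0.51 on the log2 scale, against +0.02 over all tested probe sets. Differences here are of log2(intensity + 16.3), foggy minus wild type, and the added constant makes the change of weak signals look smaller. Folds given below are taken from these differences, so the same holds for them. Fewer cells that use these genes and less of their RNA per cell cannot be told apart in such samples.

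**Figure D1:**
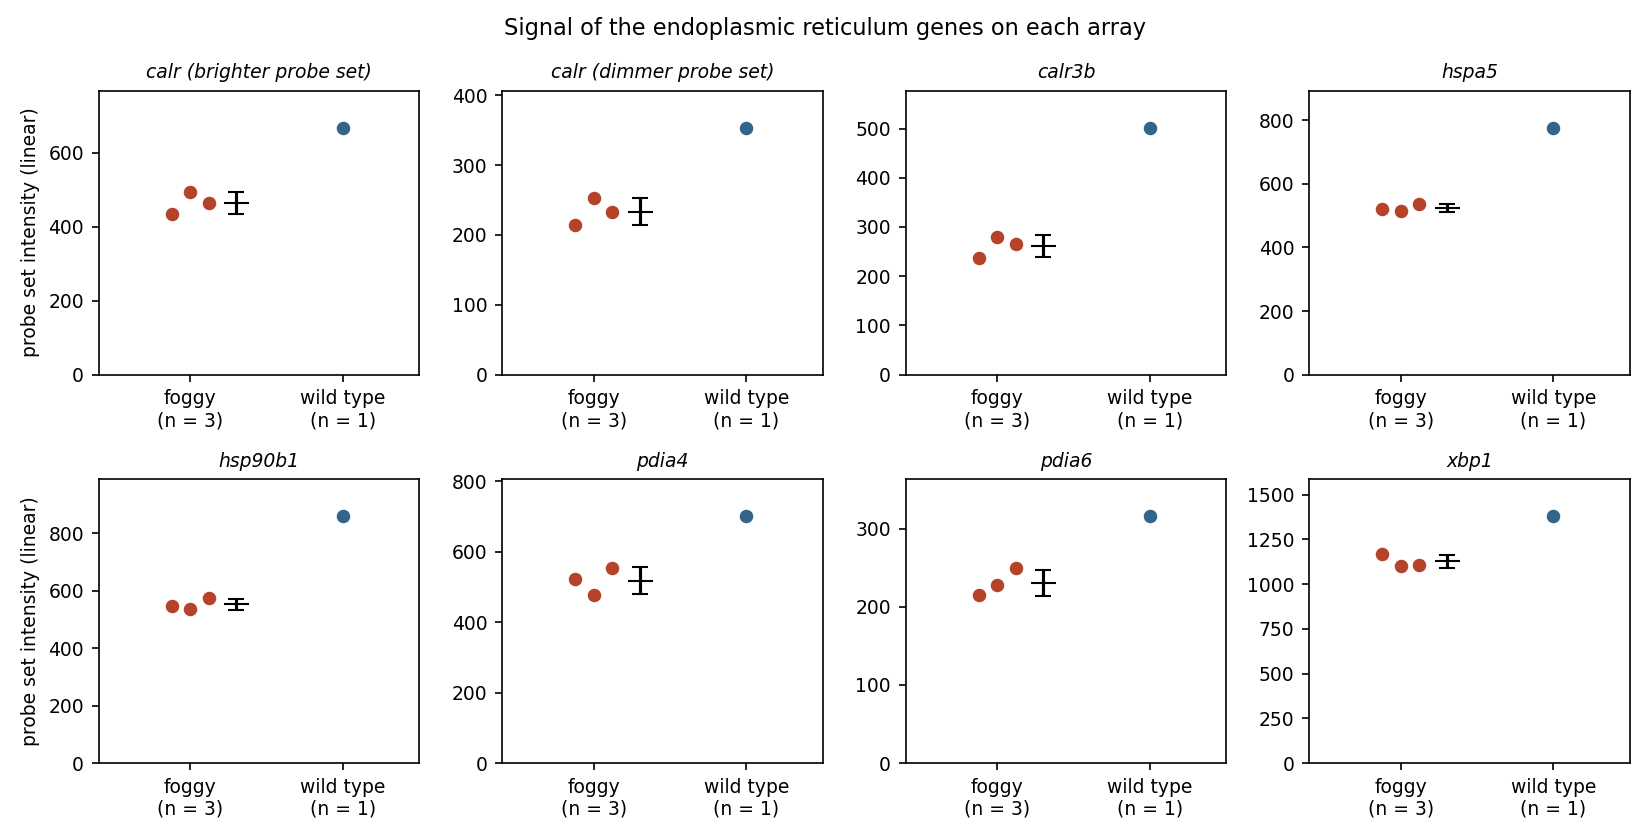
Probe set intensity on a linear axis from 0 for each of the 8 probe sets, with a red point for each foggy array, a black mark and bar for the foggy mean and SD (n = 3), and a blue point for the single wild-type array. In each panel the 3 foggy points lie below the wild-type point, and relative to the wild-type signal the gap is widest in calr3b (mean 51.9% of wild type).

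The gene hspa5 encodes BiP, the Hsp70 chaperone of the endoplasmic reticulum lumen, which also binds the stress sensors. It read 521, 515 and 538 in the foggy arrays, against 777 in the wild-type array. The groups did not overlap, and the foggy arrays differed little among themselves (SD 2.23% of their mean). The foggy mean was 67.5% of the wild-type signal, a log2 difference of -0.55. Cytosolic Hsp70 genes are similar in sequence, and part of the signal may be shared with them.

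The gene hsp90b1 encodes Grp94, the Hsp90 of the same compartment, which folds integrins and Toll-like receptors in mammals. Its probe set gave 546, 538 and 573 in the foggy arrays, against 860 in the wild-type array. Again every foggy array was below wild type, and the mean was 64.3% of it (log2 difference -0.62). The ratio of hsp90b1 to hspa5 signal in the foggy arrays was 0.948, 0.944 and 0.964 times that in wild type, so both genes stood lower by nearly the same factor.

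Calreticulin is a soluble lectin that holds newly made glycoproteins until they are folded, and it binds much of the calcium stored in the compartment. The calr3b probe set read 236, 280 and 266 in the foggy arrays, against 502 in the wild-type array. Relative to wild type this was the widest gap among the members, with a mean of 51.9% of wild type and a log2 difference of -0.91. Of all tested probe sets, 0.802% had a lower difference. Relative to hspa5, calr3b stood at 0.702, 0.841 and 0.765 times its wild-type ratio.

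The 2 probe sets of calr gave nearly the same difference. The brighter one read 434, 492 and 464 in the foggy arrays, against 668 in the wild-type array (log2 difference -0.51). The dimmer one read 214, 253 and 233 in the foggy arrays, against 354 in the wild-type array (log2 difference -0.57). Neither overlapped between the groups. In both of them, and in calr3b, foggy array 1 was the lowest and foggy array 2 the highest of the 3, while the spread between foggy arrays was 6.30% to 8.51% of the mean. The calreticulin genes are paralogs, so a probe set of one may also read another in part.

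The protein disulfide isomerases pdia4 (ERp72) and pdia6 (P5) form and rearrange disulfide bonds in folding proteins. The pdia4 probe set read 523, 477 and 554 in the foggy arrays, against 701 in the wild-type array, with a mean of 73.9% of wild type. The pdia6 probe set read 215, 227 and 249 in the foggy arrays, against 316 in the wild-type array, with a mean of 73.0%. The groups did not overlap in either gene, and their log2 differences were the same to 2 decimals (-0.43).

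The gene xbp1 encodes the transcription factor made active by Ire1 splicing. It read 1171, 1103 and 1109 in the foggy arrays, against 1381 in the wild-type array. The groups did not overlap, but relative to wild type the gap was the narrowest among the members, with a mean of 81.7% of wild type and a log2 difference of -0.29. Of all tested probe sets, 8.86% had a lower difference than xbp1. Relative to hspa5, xbp1 stood at 1.26, 1.21 and 1.16 times its wild-type ratio.

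**Figure D2:**
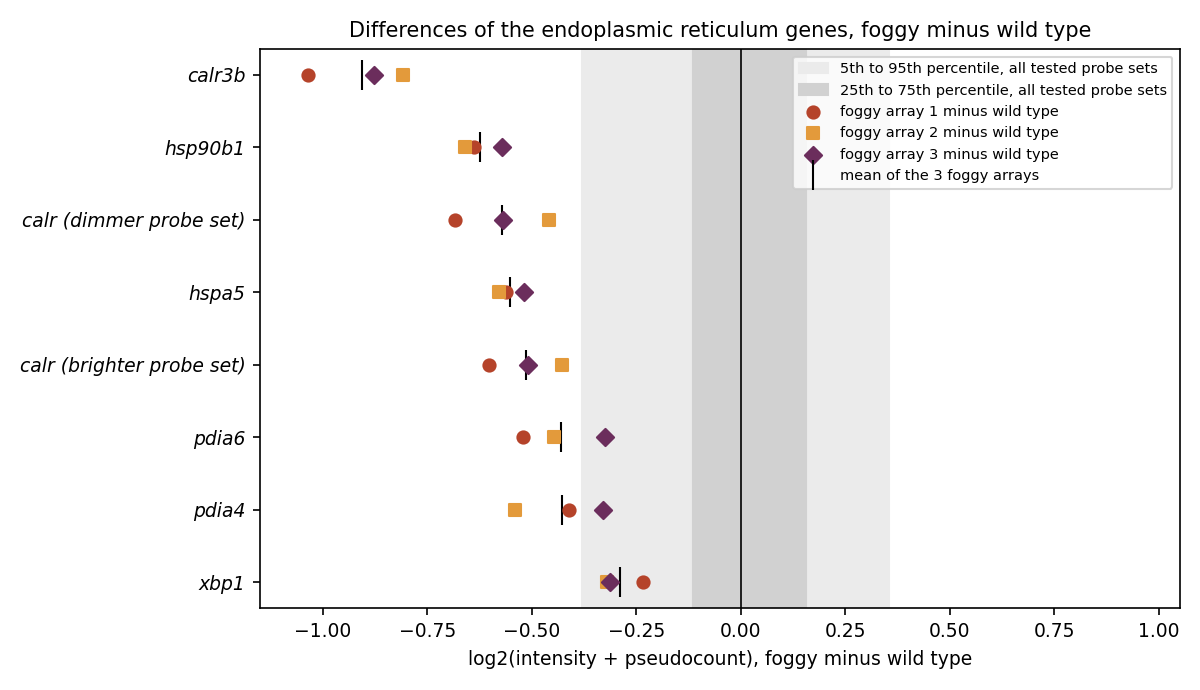
Difference in log2(intensity + pseudocount) of each foggy array from the wild-type array (coloured points) and their mean (black tick) for the 8 probe sets, ordered from calr3b (-0.91) to xbp1 (-0.29). Grey bands span the 25th to 75th and the 5th to 95th percentile (-0.38 to 0.35) of the mean difference over all tested probe sets, and all probe sets but that of xbp1 have their mean to the left of the wider band.

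The wild-type side of every one of these differences is a single array. Among the foggy arrays the median SD of the members was 0.093 on the log2 scale, against 0.092 over all tested probe sets. No foggy array was the lowest throughout, since array 1 was the lowest at 4 of the 8 probe sets and array 2 at the other 4. When the wild-type array was given an SD 2 times that of the foggy arrays, 0 of the 8 probe sets passed limma's adjusted p. Of all probe sets 0.405% passed as lower there. All 8 had an unadjusted p under 0.05 in that limma fit. The share of all probe sets at that cutoff was not counted, and nothing is read from it. Without the variance trend, 2 passed, those of calr3b and hsp90b1, against 1.26% of all as lower. Without a filter on dim signals 5 passed, all but those of pdia4, pdia6 and xbp1, against 1.62% of all as lower.

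By likeness of profile over the 4 arrays, the named genes nearest to hspa5 among 6851 were rcn3, sncgb, gng13b, islr2 and impdh1b. Likeness was the root mean square distance of centred log2 values, which ran from 0.017 for rcn3 to 0.029 for impdh1b. Among the other members hsp90b1 was the nearest (0.032, place 8) and calr3b the farthest (0.176, place 1106). With 1 wild-type array this measure is set mainly by the size of the mutant difference.

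The rest of the endoplasmic reticulum machinery was followed through 10 lists of other genes, of which 138 had a tested probe set. Each gene was read by its brightest probe set. In limma's fit over all probe sets 15 of these genes fell in the foggy brain, 1 rose and 122 did not pass. The falls were 10.9% of the 138, against 3.14% of all tested probe sets. All 3 foggy arrays lay below wild type for 72 of the 138 (52.2%), against 28.4% of all. Both comparisons set genes, each by its brightest probe set, against all probe sets, weaker and duplicate ones included. Brighter probe sets tend to have a smaller SE in this fit, and the shares were not matched for brightness. The median difference was -0.09. These lists were chosen with earlier results of these data known, so the counts are not independent evidence of a direction. Counts at an unadjusted p under 0.05 are also given for some lists below. The share of all probe sets at that cutoff was not counted, and nothing is read from them. Leaving out foggy array 1 raised the calls over all probe sets from 597 to 2045. A call gained only there is thus not particular to the gene named.

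Of 8 partners of BiP 2 fell, 0 rose and 6 did not pass. All 8 had a mean difference below 0, and their median was -0.33. The gene hyou1, for the Hsp70 relative that exchanges BiP's nucleotide, read 330, 351 and 362 in the foggy arrays, against 506 in the wild-type array. No foggy array reached the wild-type value, and the fall was 1.44-fold (log2 difference -0.52, SE 0.081, adjusted p = 0.00493). The secreted stress-induced factor manf read 205, 209 and 197 in the foggy arrays, against 279 in the wild-type array (log2 difference -0.42, SE 0.090, adjusted p = 0.0243). Its second probe set also fell (adjusted p = 0.0375). The co-chaperone dnajb11 averaged 382 ± 42.6 in foggy brain (SD, n = 3) and 506 in wild type, and did not pass (adjusted p = 0.0627), though it passed without foggy array 1 (adjusted p = 0.00122) or array 2 (adjusted p = 0.00299) and under cyclic loess (adjusted p = 0.0486). The Perk inhibitor gene dnajc3a (-0.31) and its paralog dnajc3b (-0.29) did not pass either.

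In the lectin cycle 2 of 7 genes fell and 0 rose, while 5 did not pass, and the median was -0.14. A further calreticulin gene, calr3a, read 1008, 952 and 985 in the foggy arrays, against 1276 in the wild-type array. Its fall (log2 difference -0.37, SE 0.064, adjusted p = 0.00896) came beside the lower calr and calr3b signals, so that each calreticulin gene with a named probe set was lower in foggy brain. The cargo lectin lman1, which carries glycoproteins out to the Golgi, fell 1.46-fold (adjusted p = 0.0200). Calnexin, the membrane-bound relative of calreticulin, is encoded by canx, which read 897, 778 and 812 in the foggy arrays, against 877 in the wild-type array. Its groups overlapped, with a log2 difference of -0.08 (adjusted p = 0.626) and, without foggy array 1, -0.14 (adjusted p = 0.0443). The difference between the canx and calreticulin changes was not tested. The glucosidase subunit prkcsh (-0.14, and past the threshold without foggy array 1 at adjusted p = 0.0151) and the calnexin relative clgn (+0.19) did not pass.

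Among 11 other disulfide isomerases and oxidases only pdia3 fell, 0 rose and 10 did not pass, with a median of -0.02. The pdia3 product, ERp57, works on glycoproteins held by calnexin and calreticulin. It read 467, 522 and 520 in the foggy arrays, against 744 in the wild-type array, which was 1.46-fold lower (log2 difference -0.55, SE 0.081, adjusted p = 0.00396). The next were txndc5 (-0.32, adjusted p = 0.0803) and the oxidase ero1b (-0.26), neither of which passed. The txndc5 call was gained without foggy array 1 (adjusted p = 0.00480) or array 2 (adjusted p = 0.0260).

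At the entry to the compartment 4 of 30 translocation and glycosylation genes fell and 0 rose, while 26 did not pass, and the median was -0.09. They were the translocon-associated subunits ssr4 (1.36-fold, adjusted p = 0.00324) and ssr2 (1.19-fold, adjusted p = 0.0474), the translocon partner tram1 (1.32-fold, adjusted p = 0.0167) and the oligosaccharyltransferase subunit ostc (1.24-fold, adjusted p = 0.0300). The ssr4 probe set read 937, 885 and 903 in the foggy arrays, against 1246 in the wild-type array, with no overlap. The ostc call was lost without foggy array 2 or 3 (adjusted p = 0.0680 and 0.0690), as was that of ssr2 (adjusted p = 0.0993 and 0.177). Neither passed once dim probe sets were kept in the test (adjusted p = 0.0589 and 0.0790), nor did ssr2 under median centring (adjusted p = 0.0530). The second probe set of tram1 was lower by a like amount but did not pass (-0.49, adjusted p = 0.0585). The translocon pore gene sec61a1b (-0.29, adjusted p = 0.0708) and ssr3 (-0.22, adjusted p = 0.0628) did not pass, though both did so without foggy array 1, and ssr3 also under quantile normalization (adjusted p = 0.0498) and cyclic loess (adjusted p = 0.0259).

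Of 20 retrieval and export genes 2 fell and 0 rose, while 18 did not pass, and the median was -0.08. The receptor kdelr2a returns proteins that end in the KDEL signal, BiP and Grp94 among them, from the Golgi. It read 859, 865 and 896 in the foggy arrays, against 1084 in the wild-type array, a fall of 1.24-fold (adjusted p = 0.0224). Its second probe set had a log2 difference of -0.40 and did not pass (adjusted p = 0.0741). The COPII coat gene sec23b fell 1.40-fold (adjusted p = 0.0191). The cargo receptor genes tmed9 (-0.26) and tmed2 (-0.22) did not pass, and did so only without foggy array 1 (adjusted p = 0.00407 and 0.00322).

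Genes for the degradation of misfolded proteins did not pass. Of 17 tested, limma called 0 in either direction and 2 had an unadjusted p under 0.05, with a median of -0.04. The stress-induced herpud1 averaged 138 ± 5.52 in foggy brain (SD, n = 3) and 170 in wild type (log2 difference -0.27, adjusted p = 0.182). The channel component derl1 had a difference of -0.22 and passed without foggy array 1 only (adjusted p = 0.00271). The ligase adaptor sel1l (-0.15) and the mannosidase-like edem1 (-0.08) had adjusted p-values of 0.547 and 0.810.

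The sensors and factors of the stress response had a median of +0.10. Of 13 tested, 1 rose, 0 fell and 12 did not pass, and 3 had an unadjusted p under 0.05. The gene that rose was atf3, a stress-induced factor downstream of Atf4 and of other pathways. It read 121, 100 and 112 in the foggy arrays, against 51.9 in the wild-type array. All foggy arrays were above wild type, with a mean of 214% of its signal. The fold was 1.86 with the constant added (log2 difference +0.90, SE 0.139, adjusted p = 0.00499). Both atf4 genes differed by little, atf4a with 732 ± 52.2 in foggy brain (SD, n = 3) and 683 in wild type (adjusted p = 0.569), and atf4b with 1253 ± 89.9 in foggy brain and 1162 in wild type (adjusted p = 0.507). Without foggy array 1 atf4b passed as higher (+0.16, adjusted p = 0.00720). The Perk gene eif2ak3 had a difference of +0.21 (adjusted p = 0.457). The factors atf5b (+0.43, adjusted p = 0.108) and atf5a (-0.28, adjusted p = 0.127) lay on opposite sides of 0 and passed only without foggy array 1. No probe set was named for ern1 or atf6, which are not analysed here.

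Of 11 genes of the amino acid response limma called 0, while 5 had an unadjusted p under 0.05, and the median was +0.03. All probe sets were not counted at that cutoff, so nothing is read from the 5. The asparagine synthetase asns averaged 108 ± 5.63 in foggy brain (SD, n = 3) and 84.9 in wild type (log2 difference +0.30, adjusted p = 0.205), and its dimmer probe set differed by -0.04. The glutathione-degrading chac1 (-0.23, adjusted p = 0.0882) and the transporter subunit slc3a2b (+0.28, adjusted p = 0.119) did not pass. Both passed without foggy array 1 only.

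Calcium store and collagen folding genes had medians of -0.32 and -0.25. Of 10 calcium store genes 2 fell, 0 rose and 8 did not pass. The lumenal calcium-binding protein gene rcn3 read 472, 454 and 490 in the foggy arrays, against 697 in the wild-type array, 1.46-fold lower (adjusted p = 0.00205). The calcium pump gene atp2a1, a pump of fast muscle, read 146, 141 and 136 in the foggy arrays, against 275 in the wild-type array (log2 difference -0.89, adjusted p = 6.79e-04). The relative rcn1 (-0.56, adjusted p = 0.0543) passed without any 1 of the foggy arrays and under cyclic loess (adjusted p = 0.0432), and casq2, a calcium buffer of muscle, had a difference of -0.35 (adjusted p = 0.113, and 0.0322 without foggy array 1). Of 11 collagen folding genes 2 fell, 0 rose and 9 did not pass. The collagen chaperone serpinh1b read 428, 517 and 477 in the foggy arrays, against 835 in the wild-type array (log2 difference -0.80, SE 0.096, adjusted p = 0.00101). The prolyl hydroxylation partner crtap fell 1.23-fold (adjusted p = 0.0370), lost without foggy array 2 or 3 (adjusted p = 0.0742 and 0.0903) or without a filter on dim signals (adjusted p = 0.0617). The hydroxylase subunit p4ha1b (-0.40, adjusted p = 0.0937), the isomerase fkbp14 (-0.45, adjusted p = 0.0554) and the cyclophilin ppib (-0.10, adjusted p = 0.430) did not pass, and the first 2 of these passed without foggy array 1 (adjusted p = 0.0262 and 0.00281). The fkbp14 probe set also passed under cyclic loess (adjusted p = 0.0429).

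**Figure D3:**
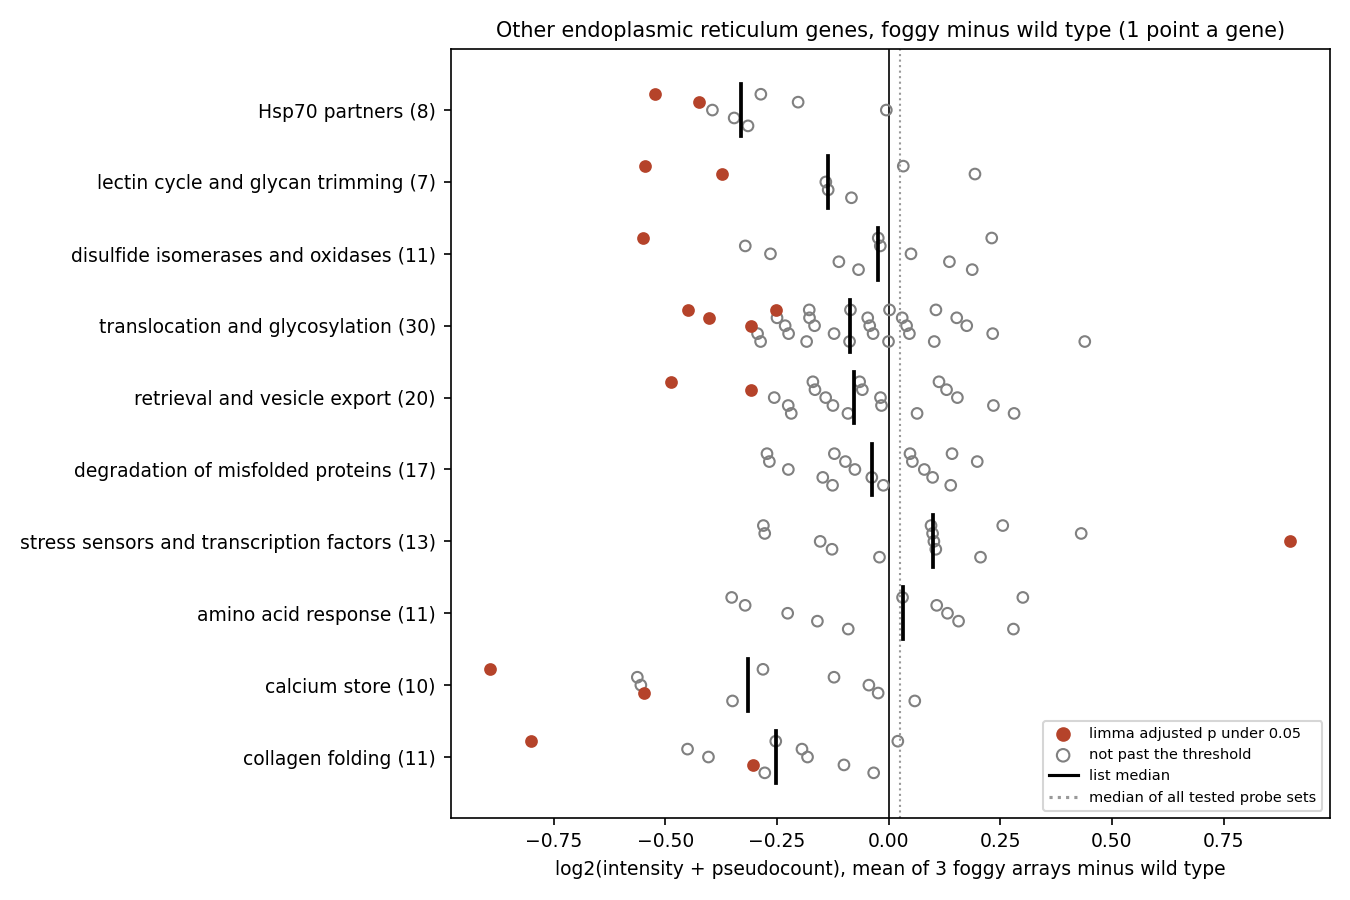
Mean difference in log2(intensity + pseudocount), 3 foggy arrays minus the wild-type array, for each of 138 other endoplasmic reticulum genes in 10 lists (number tested in brackets), with filled points past limma's adjusted p of 0.05, a black bar at each list's median and a dotted line at the median of all tested probe sets. The BiP partner, calcium store and collagen folding medians lie farthest to the left (-0.33, -0.32 and -0.25), and the filled point farthest to the right is atf3 (+0.90).

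When the wild-type array was given the larger SD, limma called 0 of the 138 genes, against 0.405% of all probe sets as lower. At an unadjusted p under 0.05 there were 15, a cutoff at which all probe sets were not counted. Without the variance trend 1 of the 15 falls, that of atp2a1, and the rise of atf3 held, against 1.26% of all as lower. Under neither setting was the share of falls in the lists above that over all probe sets. With so few falls the comparison could hardly show a difference, and no conclusion is drawn from it. Without foggy array 1 the numbers were 46 falls and 7 rises, while calls over all probe sets rose from 597 to 2045.

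Most tested markers of skeletal muscle and 6 of 12 of cartilage matrix also fell in the foggy arrays. The brain list had 15 of 15 tested, with a summed signal of 16871 to 17036 in the foggy arrays, against 17189 in the wild-type array. All of them were thus read above the limit for dim signals, but single genes went both ways, as 3 fell (gap43, gad1b and fabp7a), 2 rose (sox3 and elavl4) and 10 did not pass, with 11 of the 15 at an unadjusted p under 0.05. The share of all probe sets at that cutoff was not counted, and nothing is read from the 11. Skeletal muscle markers summed to 2729 to 2899 in the foggy arrays, against 7536 in the wild-type array. Of these, 13 of 14 fell, and the largest falls were those of pvalb1 (-2.11) and mylpfa (-1.77). Cartilage matrix markers summed to 4822 to 5116 in the foggy arrays, against 7095 in the wild-type array. Of those 12 genes 6 fell and 0 rose, while 6 did not pass, and 3 others of that list were too dim to test. The largest falls were those of col10a1a (-2.97) and matn1 (-2.17). White blood cell markers summed to 501 to 513 in the foggy arrays, against 811 in the wild-type array, and 1 of 8 fell. That was lyz, with 149 ± 2.26 in foggy brain (SD, n = 3) and 414 in wild type, and most of the gap in the sum is its own. The other 7 did not pass, the list's median was -0.13, and 4 others of that list were too dim to test.

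Liver and yolk markers summed to 739 to 762 in the foggy arrays, against 1059 in the wild-type array. Of 4 tested 1 fell, rbp4, with 638 ± 14.4 in foggy brain (SD, n = 3) and 951 in wild type, which makes up the gap in the sum. The other 3 did not pass, 2 of the 4 lay above 0, the list's median was +0.01, and 9 others of that list were too dim to test. For the notochord 4 of 7 measured markers were too dim, tbxta and noto among them, and 0 of the 3 tested passed limma's test (0 also at an unadjusted p under 0.05). Exocrine pancreas had 9 of 10 markers too dim, and the 1 tested did not pass. For the hatching gland klf17 was the sole marker on the array, with 33.0, 34.1 and 42.1 in the foggy arrays, against 37.3 in the wild-type array. Muscle and cartilage markers thus differed between the samples in the direction of the endoplasmic reticulum genes, and their part in the lower chaperone and calreticulin signals was not tested.

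**Figure D4:**
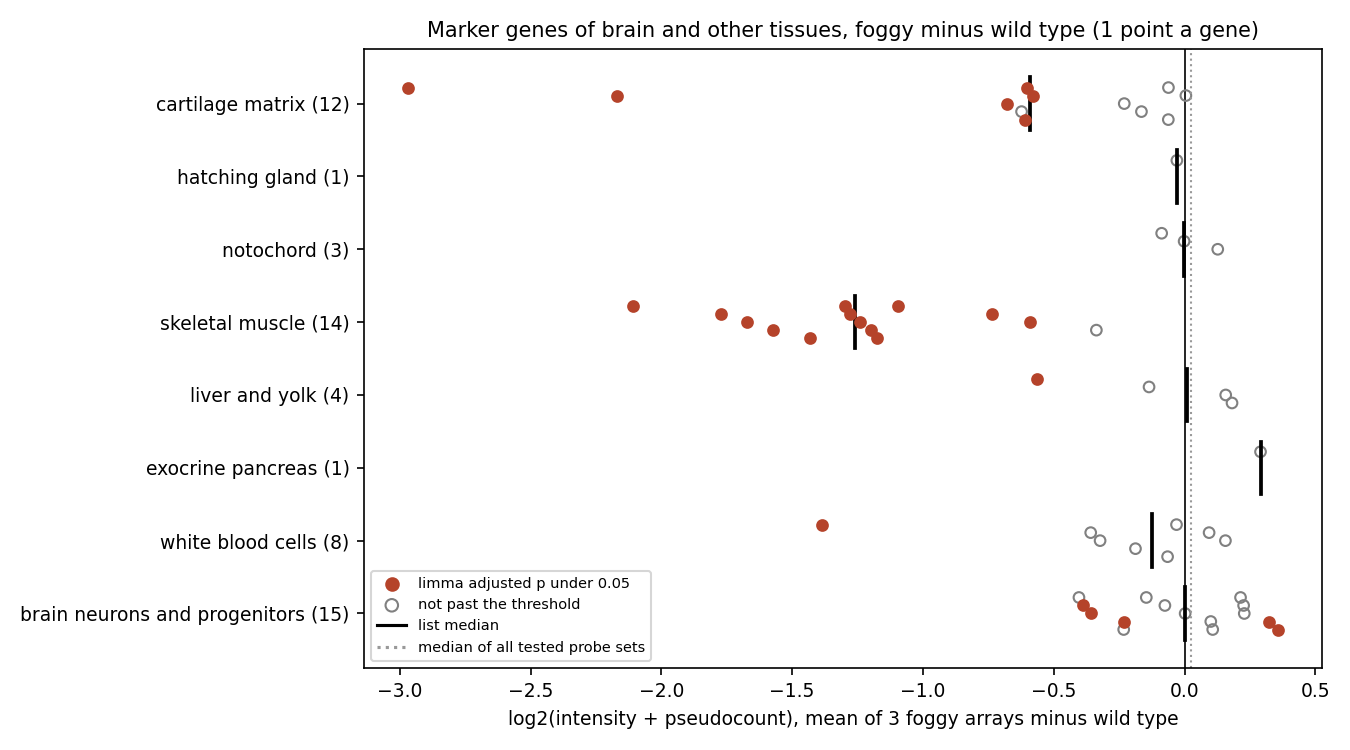
Mean difference in log2(intensity + pseudocount), 3 foggy arrays minus the wild-type array, for each marker gene of the brain list and of the other tissue lists, drawn as in the plot of endoplasmic reticulum lists. Skeletal muscle markers lie farthest to the left as a list, and the brain markers lie on both sides of 0. Single cartilage markers reach -2.97, the value of col10a1a, whose foggy signal is at the level of dim probe sets.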

How the data were processed

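RNA of 3 foggy and 1 wild-type embryonic brain sample was hybridised to an expression array. The authors deposited 1 table of linear probe set intensity. The summarising software and its version are not given here, nor are detection calls. Their mean after trimming 2% at each end was 149.9 in every array, so they were already scaled and were used as deposited. Such scaling removes a shift common to most transcripts. Log2 of intensity plus 16.3 (the 20th percentile of all values) was taken, and 115 control and 4651 dim probe sets were left out. Dim meant a mean log2 over all 4 arrays under the 30th percentile. As 3 of the 4 are foggy, a transcript seen in wild type alone is left out more readily than the reverse. On the other 10851, limma 3.58.1 (R 4.3.3, lmFit, then eBayes with a variance trend) was run, two-sided, Benjamini-Hochberg adjusted, threshold 0.05. The spread came from the foggy arrays alone (2 residual and 7.89 prior degrees of freedom), with the assumption that wild type varies equally, and permuting the 4 arrays gives no p under 0.25. The small number of arrays limits the precision. The fit was also run on simulated data in which all 4 arrays had the same SD at a given probe set. That run therefore cannot show whether wild type varies equally.

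Of 15617 probe sets 10802 had 1 gene symbol, 135 had several and 4680 had none here. Symbols came from the platform annotation, updated by gene number through the RefSeq table of GRCz12tu, which matched 10718 and changed 1. Members and lists were chosen with earlier results of these data known. The lists were the 10 of the endoplasmic reticulum (BiP or Hsp70 partners, lectin cycle, disulfide isomerases and oxidases, translocation and glycosylation, retrieval and vesicle export, degradation, stress sensors and factors, amino acid response, calcium store, collagen folding) and 8 of tissue markers. Named were all members, in each endoplasmic reticulum list the 4 largest changes past the threshold and the 2 smallest p-values not past it, a set of core genes, and the 2 largest changes of each marker list, while fabp7a, sox3, elavl4, klf17, tbxta and noto were named after their values were seen. Alternatives were other pseudocounts, no filter, no trend, other scalings, a larger wild-type SD, the median over a gene's probe sets, and each foggy array left out.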

Additional observations from a re-analysis of the deposited data

How the results depend on the processing

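The median difference of the members stayed below 0 under all 12 alternatives, and was -0.54 when the median over a gene's probe sets replaced the brightest, and -0.54 to -0.47 with a foggy array left out. The members were chosen on this contrast, so nothing is read from the sign of their median or from their calls under any setting. Among other endoplasmic reticulum genes, the 15 falls became 1 without the variance trend and 0 when wild type was given an SD 2 times that of foggy (limma; 15 genes had an unadjusted p under 0.05 there), where the 1 rise became 0. With 1 foggy array left out there were 13 to 46 falls and 1 to 7 rises, the most of each without array 1, and arrays 2 and 3 had the smallest SD of differences between them (0.158 on the log2 scale). Over all probe sets, 341 were lower and 256 higher. There were 129 higher without a filter, 137 lower and 27 higher without the variance trend, 44 lower and 3 higher with the larger wild-type SD, and 344 to 866 lower and 213 to 1179 higher with a foggy array left out. The xbp1 probe set did not pass without foggy array 2 or 3. Other pseudocounts, median centring, quantile normalization and cyclic loess left all 8 past the threshold and kept 14 or 15 of the 15 falls, while cyclic loess made the falls 21 and quantile normalization 16. Without a filter 12 of the 15 were kept, and 13 with the median over a gene's probe sets. All of these fits share the single wild-type array. No paired analysis was possible because there is 1 wild-type array and the labels state no pairing.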

Other observations

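The txndc5 gene, for a disulfide isomerase, was read by several tested probe sets. Its brightest had a difference of -0.32 and did not pass, and another fell (-0.38, adjusted p = 0.0252). Others had differences of -0.40 (adjusted p = 0.116) and -0.24 (adjusted p = 0.201) and did not pass, nor did a dim one at +0.11 (adjusted p = 0.779). Differences between these probe sets were not tested.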
